A study of Mus musculus with 30 samples.

Results

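The mitochondrial ribosomal proteins are the nuclear-encoded proteins of the ribosome inside the mitochondrion, and their transcripts were followed in 30 single mouse muscle fibres. Members were all array probes other than controls whose gene name begins with Mrpl (large subunit) or Mrps (small subunit) followed by a digit, so that no measured value entered the choice. This gave 78 gene names, 47 of the large and 31 of the small subunit, out of 35440 gene names on the array. Of these, 77 were measured, each by a probe well above background on all 30 arrays, and Mrps36-ps1 was not well above background on any array. All 47 large subunit genes and 30 small subunit genes therefore enter the counts below, out of 23342 genes tested. The 30 include the pseudogene Mrps36-ps2. Its probe (chr13:101505986-101506045 on mouse build mm9) lies beside the one used for Mrps36 (chr13:101505916-101505975).

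The mitochondrial ribosome translates the few proteins that mitochondrial DNA encodes, all of them subunits of the respiratory chain and ATP synthase. Its ribosomal RNAs come from mitochondrial DNA, whereas its proteins are made in the cytosol and imported, so both genomes must supply parts. Some of the proteins have counterparts in bacterial ribosomes and others occur in mitochondrial ribosomes only. Names do not always give the place of the protein: those of Mrps30 and Mrps18a lie in the large subunit, and the protein of Mrps36 is now assigned to the 2-oxoglutarate dehydrogenase complex.

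Every fibre was taken from a fast muscle of the lower hindlimb, the extensor digitorum longus (EDL), of adult male CD1 mice, 8 weeks old per the labels. Injected muscles had received an adeno-associated virus (AAV) that either carried MCU or silenced it; MCU is the pore of the calcium uniporter of the inner mitochondrial membrane. The day 7 groups held 4 wild type fibres without injection, 4 transfected controls, 3 fibres that had received the MCU vector and 3 that had received the silencing vector; at day 14 each of the 4 groups held 4 fibres. For the transfected control the sample titles name a luciferase hairpin and the other labels an empty AAV, so its insert is uncertain. Fibres of injected muscles were picked for the green marker ZsGreen, those with a vector against or for MCU had passed a quantitative PCR for MCU, and their RNA was amplified before labelling. No label says which animal a fibre came from; the tests therefore use the spread from fibre to fibre, and fibres may share an animal.

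Mcu itself followed the labels: its mean log2 level was 2.46 to 2.67 in the 4 control groups, 3.27 and 6.36 with the MCU vector at 7 and 14 days, and 0.49 and -0.52 with the silencing vector; these fibres had been chosen on MCU, so this is no independent check. A level is the log2 of a probe's signal divided by the 75th percentile of its own array, and signal at that percentile ranged from 83.2 to 138 between arrays, on which 49.3% to 59.5% of probes were well above background. Of 10 fast fibre markers 9 were above background on all arrays, while Myh2 was so on 2 arrays. Of 4 fibroblast markers none was well above background on all arrays (Dcn on 7, Col1a1 on 6, Lum on 1 and Pdgfra on none), and of 3 satellite cell markers Cdh15 was on all 30, Pax7 on 1 and Myf5 on none. Of the leukocyte markers 5 were well above background on all 30 arrays. The summed fast marker signal reached down to 1578 in the silencing group of day 14, against 2546 to 4416 in the other groups. Each comparison of a vector with its control was made within a slide, whereas transfected control and wild type fibres, and fibres of different days, never shared one. For those contrasts slide and group cannot be told apart.

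The probes of 3 members, which span more genome than their length, show what was read; each is a designed 60-base probe printed 5′ to 3′, with its span on mouse build mm9.

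Mrpl47 (chr3:32629104-32630111, minus strand): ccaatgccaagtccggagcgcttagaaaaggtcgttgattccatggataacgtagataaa
Mrps35 (chr6:147009999-147019119, plus strand): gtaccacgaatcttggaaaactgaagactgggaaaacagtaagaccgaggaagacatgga
Mrps5 (chr2:127426599-127427149, plus strand): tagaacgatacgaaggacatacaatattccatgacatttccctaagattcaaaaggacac

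Within groups the fibres differed in how much mitoribosomal message they held, and both subunits moved together. For each fibre the members' levels, each relative to that gene's mean over the 30 fibres, were averaged by subunit. After the group means were taken out, large and small subunit values of the 30 fibres correlated at r = 0.97, and the large subunit correlated at 0.85 with 48 subunits of respiratory complex I and at 0.31 with 82 cytosolic ribosomal proteins. These are descriptions: the values of a fibre share its library and its scaling. Among single members, Mrps36 (r = 0.84) and Mrpl13 (0.83) lay closest to the mean of the other members over the 30 fibres, and Mrpl35 (-0.02), Mrpl52 (-0.01) and Mrps12 (-0.00) did not follow it. For Mrps36 the other members include its pseudogene Mrps36-ps2, read by a neighbouring probe. The members had a median within-group standard deviation of 0.21 for large and 0.19 for small subunit genes against 0.31 for all genes. Every member was well above background on all arrays, as were probes of only 16441 of the 23342 genes. The spreads are therefore compared at unlike detection. Mrps23 had the smallest, 0.09, and Mrpl19 the largest, 0.41.

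**Figure D1:**
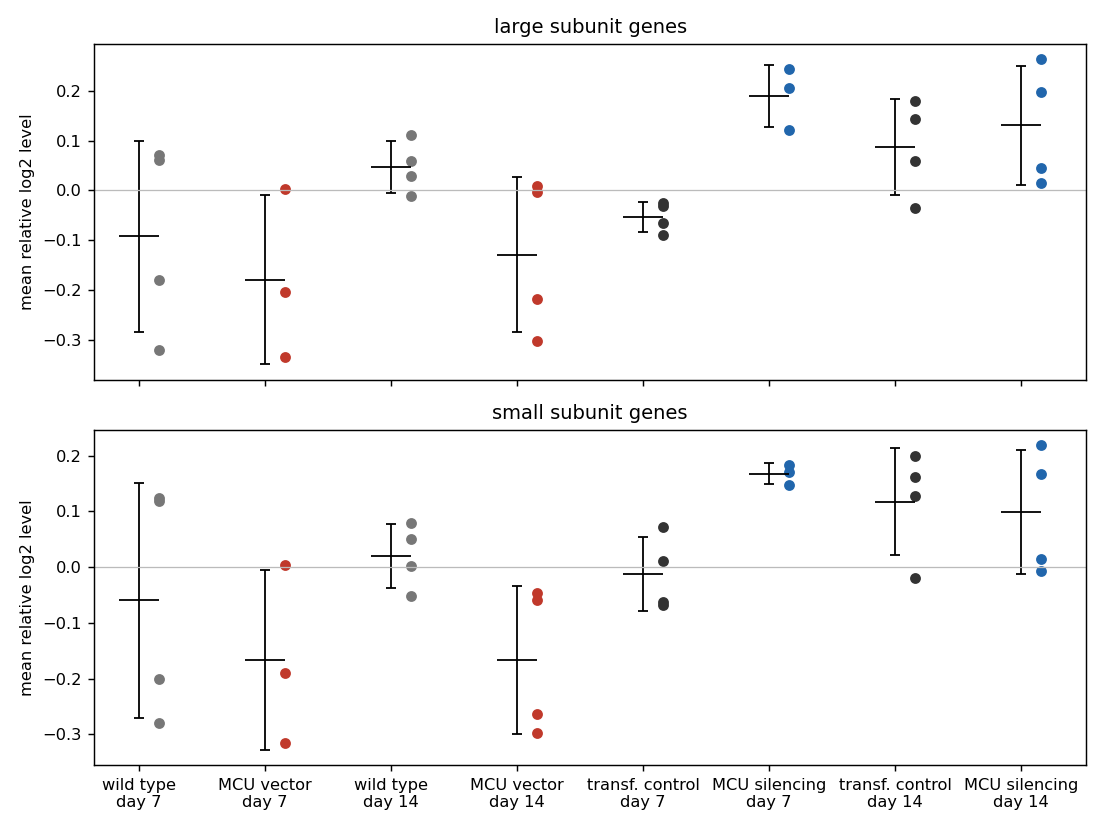
Mean relative log2 level of the large (top) and small (bottom) subunit genes in each fibre (points), by group, with the group mean and standard deviation (black). The 3 silencing fibres of day 7 lie between 0.12 and 0.24 for the large subunit, above all 4 transfected controls of that day (-0.09 to -0.03), while the wild type fibres of day 7 spread from -0.32 to 0.07.

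With the MCU vector, mitoribosomal transcripts were mostly a little lower, and none passed the test. The wild type fibres had no injection, so injection, virus, picking for ZsGreen and MCU cannot be told apart in this comparison. Over both days the median difference from wild type was -0.13 for large and -0.17 for small subunit genes, against -0.02 for all genes. A negative difference was seen in 67 of 77 members and in 12724 of 23342 genes. Members moved together within a fibre, so their signs are not independent. At day 14 the large subunit means of the vector fibres were -0.219, -0.302, -0.004 and 0.009, against -0.011 to 0.112 in wild type. At day 7 they were -0.336 to 0.002, against -0.321 to 0.071. No member was called by limma at an adjusted p below 0.05, where 1.13% of all genes were called; without fibre 3 of wild type or of the MCU vector group of day 7, 1 was. At an unadjusted p below 0.05, 15 members were lower and none higher, against 7.08% of all genes lower. The lowest adjusted p belonged to Mrps28, a small subunit protein (difference -0.35, limma adjusted p = 0.082). Its levels were 3.52, 3.68 and 3.94 in the vector fibres of day 7 against 3.74 to 4.27 in wild type, and 3.38 to 3.72 against 3.75 to 4.19 at day 14. The groups overlapped at day 7 and did not at day 14. Complex I subunits had negative differences in 47 of 48 cases over both days (median -0.20), and none was called. The 2 fibroblast markers tested had negative differences, with a median of -1.91 over both days and -3.20 at day 14, at an unadjusted p below 0.05 for 1 of them over both days and for both at day 14; neither was called, and their part in the differences of the mitoribosomal genes was not tested.

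Neither day alone gave a called member. At day 7 no member was called (0.574% of all genes), with 2 members lower at an unadjusted p below 0.05 (2.81% of all genes) and medians of -0.09 and -0.12. Leaving out 1 fibre moved these medians between -0.17 and 0.005 for the large and between -0.20 and -0.03 for the small subunit; the large subunit median was above 0 without fibre 1 of the MCU vector group of day 7. At day 14 none was called (0.428% of all genes), with 14 lower before adjustment (5.99% of all genes) and medians of -0.18 and -0.19. The difference between the days called no member either (0.201% of all genes; 1 member lower before adjustment, 1.9% of all genes). Mrpl34, which has a bacterial counterpart, measured -0.36 over both days (adjusted p = 0.16), and Mrpl30 -0.31 (adjusted p = 0.10). At the other end, Mrpl11, which lies at the base of the stalk, measured 0.10 and Mrps18c 0.14, with adjusted p of 0.76 and 0.69.

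With the silencing vector, 7 members rose and 1 fell over both days, a share of 10.4% of the members that lies below the 14.1% of all genes called (8% higher and 6.1% lower). The count is therefore no result particular to these genes. Of the risers, 6 belong to the large subunit: Mrpl41, Mrpl35, Mrpl55, Mrpl18, Mrpl48 and Mrpl51. The small subunit gave Mrps5, and Mrpl42, a large subunit protein found in mitochondria only, fell. The medians were 0.11 for large and 0.08 for small subunit genes, with 0.04 for all genes. When arrays were scaled to their median instead, 1 member was called, lower, the medians were -0.011 and -0.047, that of all genes was -0.083, and 25.1% of all called genes were higher in place of 56.7%. The members' distance from the median of all genes, 0.07 and 0.04, could not differ between these scalings, since each subtracts the same value from every gene of an array. It was 0.02 and -0.03 with normexp background correction, and 0.16 and 0.10 with quantile normalization.

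Mrpl41, a large subunit protein without a bacterial counterpart, had the largest rise. Its levels were 1.46, 0.74 and 1.38 in the silencing fibres of day 7 against 0.46 to 0.86 in the controls, and 1.12, 0.87, 1.75 and 0.77 at day 14 against 0.43 to 0.83. Most silencing fibres were high and the groups overlapped on both days. The difference was 0.57 with a standard error of 0.16 (limma adjusted p = 0.023). Another Mrpl41 probe, not used in the fit, lies at chr2:24828035-24828094 and measured -0.51 in the same comparison, the opposite direction, so the rise rests on the probe at chr2:24829696-24829755. With the mean of a gene's probes the difference was 0.03. Of 21 members with more than 1 probe that was well above background on most arrays, these probes shared a sign for 14 in this comparison and for 16 with the MCU vector.

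Mrpl35, which has a bacterial counterpart, rose by 0.52 (SE 0.14, adjusted p = 0.018). Its levels at day 14 were -0.44, -0.07, 0.06 and 0.29 in silencing fibres, against -0.81, -1.09, -0.38 and -0.75 in controls; 3 silencing fibres lay above every control. Mrpl35 was also lower in transfected control than in wild type fibres, by 0.40 (adjusted p = 0.033), and its silencing levels of day 7 (-0.47 to -0.27) lay within those of wild type (-0.49 to -0.08).

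Mrpl55, found in mitochondrial ribosomes only, had levels of 3.94, 4.01 and 4.09 in the silencing fibres of day 7 against 3.26, 3.38, 3.71 and 3.58 in controls, and 4.19, 3.62, 4.43 and 3.70 at day 14 against 3.47 to 3.72. The groups were apart at day 7 and overlapped at day 14, and the rise over both days was 0.44 (SE 0.11, adjusted p = 0.011). Mrpl18, counterpart of a bacterial protein, measured 2.72, 2.74 and 2.90 against 2.02 to 2.46 at day 7, and 2.83, 2.38, 3.12 and 2.44 against 2.33 to 2.50 at day 14. Again the groups were apart at day 7 only, with a rise of 0.40 over both days (SE 0.11, adjusted p = 0.020). Mrps5, counterpart of the bacterial protein involved in accurate decoding, measured 3.01, 2.58 and 3.02 against 2.16 to 2.71 at day 7 and 2.79, 2.55, 3.105 and 2.80 against 2.35 to 2.74 at day 14. Its groups overlapped on both days, and the rise was 0.35 (SE 0.11, adjusted p = 0.031).

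Mrpl48 (0.28, adjusted p = 0.034) and Mrpl51 (0.25, adjusted p = 0.039) rose least, and Mrpl42 fell by 0.25 (SE 0.08, adjusted p = 0.044). Mrps9, which has a bacterial counterpart, measured 0.43 without passing the test (SE 0.17, adjusted p = 0.088). The count of 8 was 5 without fibre 2 or 4 of the controls of day 7, without fibre 1 of the controls of day 14 or without fibre 3 of the silencing group of day 14; it was 4 without fibre 1 and 2 without fibre 3 of the silencing group of day 7. Each of the 8 calls but those of Mrpl35 and Mrpl55 was lost without at least 1 fibre.

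At day 7 of silencing 8 members rose and 1 fell, 11.7% of the members against 13.4% of all genes (8.28% higher, 5.17% lower), with medians of 0.24 and 0.17 against 0.08 for all genes. The distance from the median of all genes was 0.159 and 0.086. It was 0.032 and -0.003 with normexp background correction, and 0.23 and 0.184 with quantile normalization. Mrpl20, which in bacteria joins the large subunit early in assembly, had the smallest p: its levels were 3.45, 3.32 and 3.22 in silencing fibres against 2.76, 2.77, 2.89 and 2.74 in controls. Every silencing fibre lay above every control, a difference of 0.54 (SE 0.11, limma adjusted p = 0.0031). Mrpl47, whose bacterial counterpart sits at the exit of the peptide tunnel, had the largest difference, 0.85 (SE 0.23, adjusted p = 0.016), with levels of 2.08, 1.73 and 2.49 against 0.96 to 1.51. Its other 2 probes measured 0.43 and 0.67. Mrps35, read by 10 spots, rose by 0.71 (adjusted p = 0.041), from -1.02 to -0.90 in controls to -0.47 to -0.14.

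Mrpl12, the stalk protein that also binds the mitochondrial RNA polymerase, rose by 0.60 (adjusted p = 0.037), with levels of 4.66, 4.45 and 5.14 against 4.03 to 4.38. Mrpl48 rose by 0.54 (adjusted p = 0.0075), from 3.92 to 4.21 in controls to 4.54, 4.66 and 4.71, and Mrpl51 by 0.44 (adjusted p = 0.013), from 5.04 to 5.22 in controls to 5.55, 5.62 and 5.53. Both are proteins of mitochondrial ribosomes only, and their silencing fibres lay above every control. Mrpl55 (0.53) and Mrpl18 (0.52) were the other risers. Mrpl42 went the other way: 4.23, 4.55 and 4.25 in silencing fibres against 4.65 to 4.87 in controls, a fall of 0.43 (adjusted p = 0.020), with every silencing fibre below every control. The count was 4 without fibre 1 of the controls or of the silencing group and 3 without fibre 3 of the silencing group. Fitted to the 2 groups of day 7 alone, no member was called.

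At day 14 the 2 called members were others, Mrpl35 (0.72, adjusted p = 0.038) and Mrps25 (0.48, adjusted p = 0.029), 2.6% of the members against 3.46% of all genes, and the medians were -0.03 and -0.07. Mrps25, a small subunit protein found in mitochondria only, had levels of 4.25, 3.97, 4.33 and 4.12 in silencing fibres and 3.75, 3.70, 3.67 and 3.64 in controls, without overlap. At day 7 it measured -0.06. The change of the silencing effect between the days was called for Mrpl20 alone (-0.62, SE 0.16, adjusted p = 0.022), 1.3% of the members against 4.13% of all genes. Its day 14 levels, 2.70 to 2.89, overlapped those of the controls, 2.80 to 3.08, with 1 silencing fibre below every control. Larger changes missed the threshold in Mrpl47 (-0.88, adjusted p = 0.12), Mrps35 (-0.79, adjusted p = 0.17), Mrps12 (-0.66, adjusted p = 0.12), Mrpl12 (-0.65, adjusted p = 0.17) and Mrps31 (-0.64, adjusted p = 0.17), and the largest change upwards, in Mrps26, was 0.59 (adjusted p = 0.061). The day 14 count was 0 without fibre 1, 2 or 4 of the controls or fibre 3 of the silencing group of that day, and 1 without fibre 3 of the controls or fibre 1, 2 or 4 of the silencing group. The count for the change between days was 0 without fibre 2 of the controls of day 14 or fibre 1 of the silencing group of day 7, and 2 without fibre 2 of the controls of day 7 or fibre 2 or 4 of the silencing group of day 14.

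**Figure D2:**
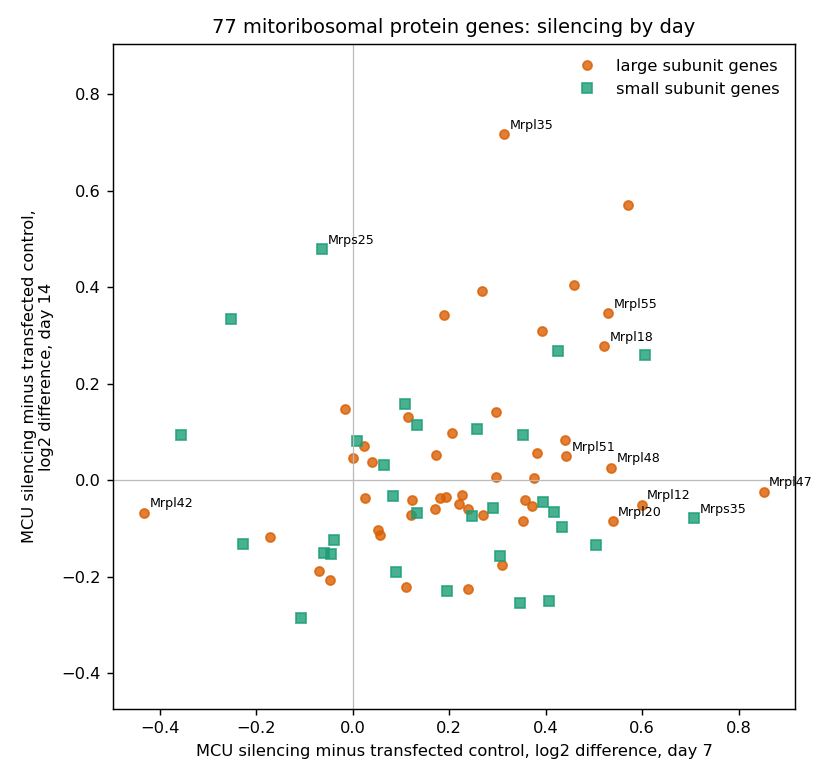
Log2 difference between silencing and transfected control fibres at day 7 (horizontal) and day 14 (vertical) for 77 genes, circles for the large and squares for the small subunit, with the genes called on either day named. Of 77 points 64 lie right of 0 at day 7 and 33 lie above 0 at day 14, and Mrpl35 lies highest, at 0.72. Among all 23342 genes 13348 had a positive difference at day 7 and 11420 at day 14.

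The effects of the MCU vector and of silencing were also compared with each other. Their controls were unlike: wild type fibres had no injection, whereas transfected controls were injected and picked for ZsGreen. The vector effect therefore also holds injection, virus and picking, which cannot be told apart from MCU in this contrast. The vector effect lay below the silencing effect for 66 of 77 members and for 13385 of 23342 genes. The test called 8 members, all lower with the vector than with silencing relative to their own controls: 10.4% of the members, against 5.86% of all genes lower and 11.2% called in either direction. They were Mrpl41 (-1.01, SE 0.23, adjusted p = 0.0076, on the probe used), Mrpl35 (-0.70), Mrps35 (-0.67), Mrpl14 (-0.63), Mrpl55 (-0.58), Mrpl34 (-0.58), Mrpl38 (-0.51) and Mrpl20 (-0.35), the last 7 with adjusted p from 0.020 to 0.0498. The other Mrpl41 probe measured -0.38 with the vector and -0.51 with silencing, and with the mean of both probes the difference was -0.435 (adjusted p = 0.092), no longer called. The medians were -0.26 and -0.23 for large and small subunit genes against -0.07 for all genes. For Mrpl14, a protein of the face between the subunits, the vector fibres of day 14 measured 3.81, 3.76, 4.06 and 4.06 against 4.19 to 4.45 in wild type, and the silencing fibres 4.65, 4.26, 5.12 and 4.24 against 3.88 to 4.43 in controls. The first pair did not overlap and the second did. Mrpl34, read by 10 spots, measured 3.19, 3.17, 3.36 and 3.38 in the vector fibres of day 14 against 3.62 to 3.87 in wild type, and 4.37, 3.90, 4.43 and 3.79 in silencing fibres against 3.74 to 4.18 in controls. Here too only the vector fibres stood apart.

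Mrpl38, found in mitochondrial ribosomes only, measured -0.09, 0.08 and 0.66 in the vector fibres of day 7 against 0.39 to 0.67 in wild type, and 1.00, 0.88 and 1.23 in silencing fibres of that day against 0.50 to 0.81 in controls. At day 7 the vector fibres overlapped wild type and the silencing fibres lay above every control. The count of 8 went to 3 without fibre 1 of the MCU vector group of day 7, to 19 without fibre 3 of that group and to 13 without fibre 4 of the silencing group of day 14, and it was 4 or 5 without fibre 1 or 4 of wild type of day 7, fibre 3 of wild type of day 14, fibre 1 of the controls of either day, fibre 2 of the vector group of day 7, fibre 1 or 2 of the vector group of day 14, fibre 1 or 3 of the silencing group of day 7 or fibre 3 of the silencing group of day 14.

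**Figure D3:**
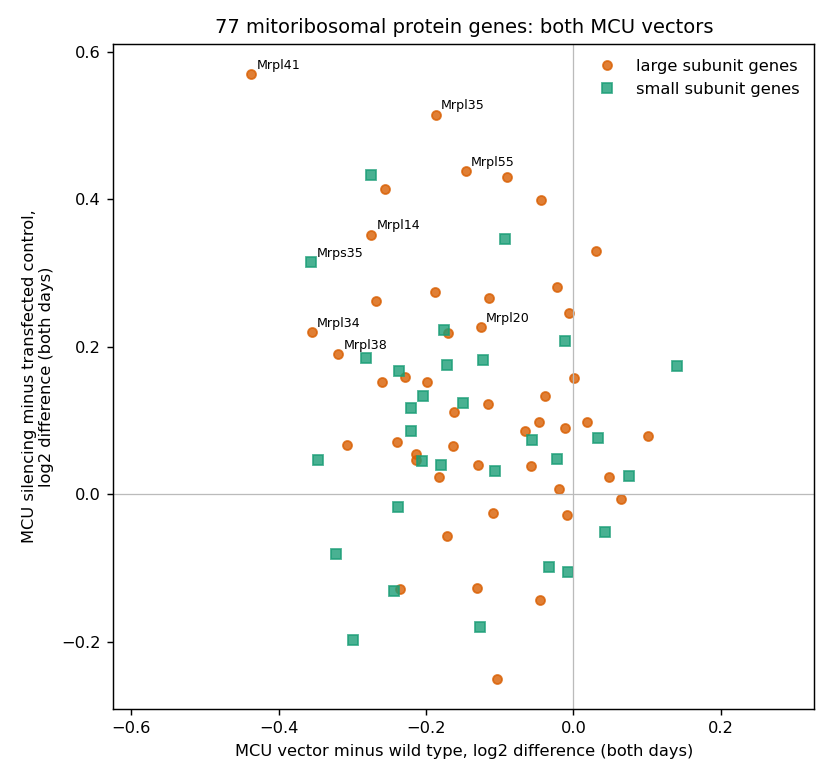
Log2 difference of MCU vector from wild type (horizontal) and of silencing from transfected control (vertical), both over both days, for 77 genes, with the 8 genes named whose effects differed. Of 77 points 67 lie left of 0 and 61 above it, and Mrpl41 lies farthest out, at -0.44 and 0.57. Among all 23342 genes 12724 had a negative difference with the vector and 12945 a positive one with silencing.

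**Figure D4:**
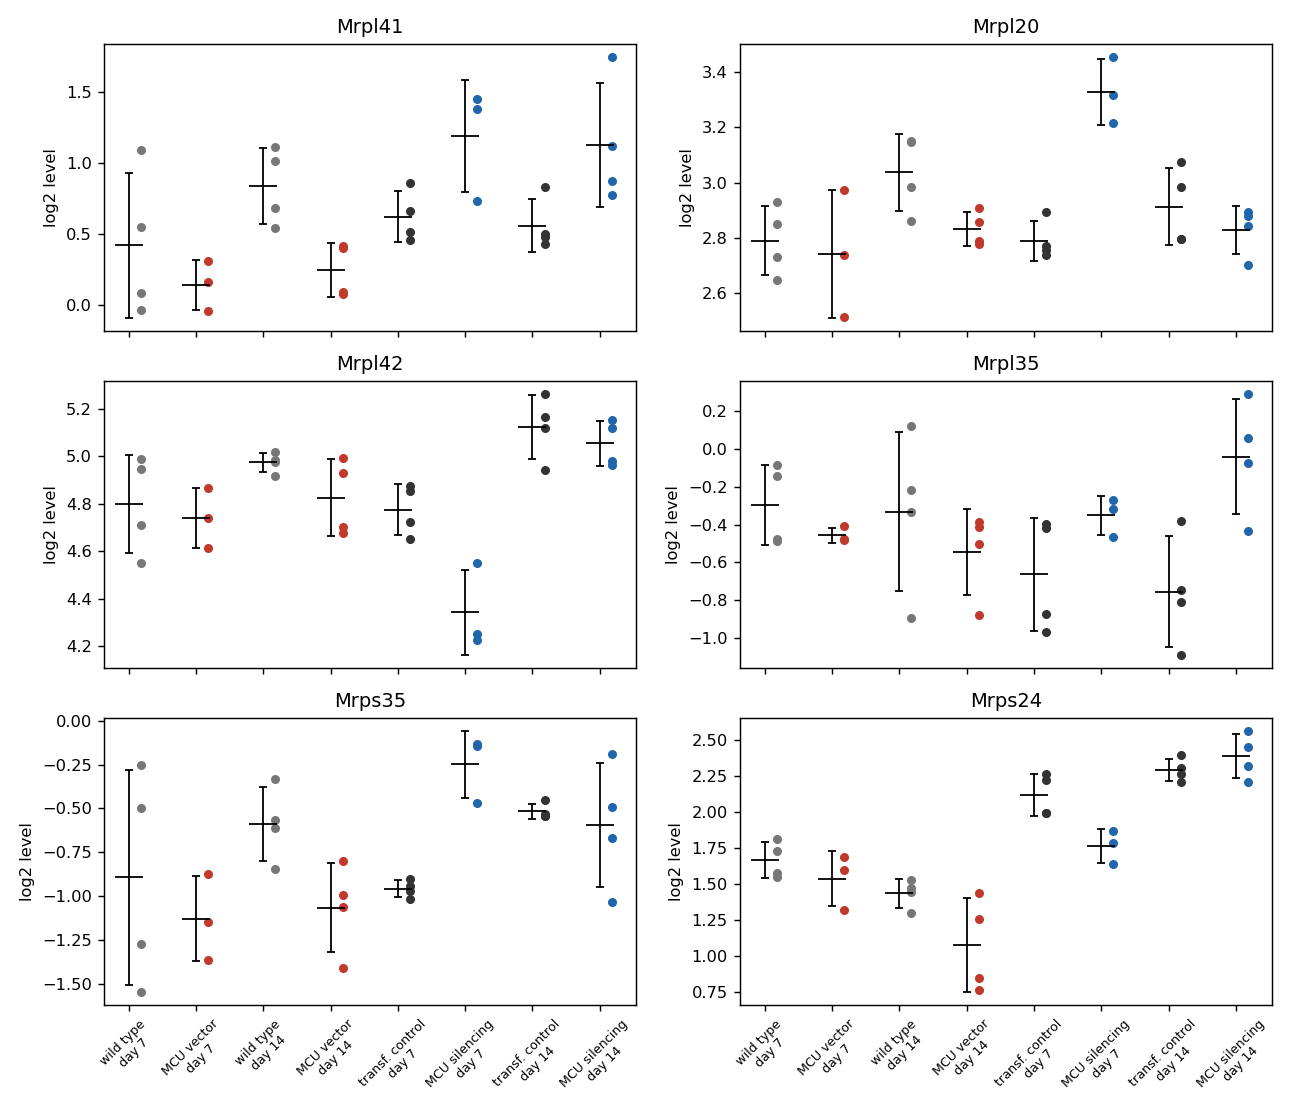
Log2 level of 6 members in each fibre (points) with group mean and standard deviation (black), treated groups beside the control group of the same slide. Mrpl20 and Mrps35 are high in the silencing fibres of day 7, Mrpl42 is low there, and Mrps24 is higher in both transfected control groups than in both wild type groups.

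Further members of known role, none of them called in a comparison with a vector, had these values. Mrpl3, beside the peptidyl transferase centre, measured -0.06 with the vector and 0.04 with silencing over both days; Mrpl44 measured 0.05 and 0.02, and Mrps34 0.08 and 0.03. Mrps22 measured 0.04 and -0.05, and Mrps2 -0.01 and -0.10. Another Mrps2 probe, not used in the fit, measured 0.16 and 0.17, the opposite direction in both comparisons. Mrps12, the decoding-centre protein, measured 0.41 at day 7 of silencing (adjusted p = 0.12). Mrps30 measured -0.22 with the vector (adjusted p = 0.61) and 0.09 with silencing (adjusted p = 0.78).

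Other parts of mitochondrial translation were read from lists, beside all genes, of which 14.1% were called over both days of silencing, 13.4% at day 7 and 3.46% at day 14; with so few genes a list, the counts are a description. Of 6 mitoribosomal proteins with other names, silencing raised Dap3, a small subunit GTP-binding protein, by 0.29 (adjusted p = 0.042) and lowered Aurkaip1, a small subunit protein, by 0.47 over both days (SE 0.08, adjusted p = 0.00034). At day 7 Aurkaip1 fell by 0.84 (adjusted p = 3.64e-05) and Chchd1, a small subunit protein, rose by 0.44 (adjusted p = 0.037). Of 15 translation factors, 1 was called at day 7, the initiation factor Mtif3 (0.45, adjusted p = 0.041), and none over both days. Of 25 assembly and rRNA-modifying factors 2 rose over both days: Rbfa, which acts in small subunit assembly (0.34, adjusted p = 0.0050), and Tfb1m, which methylates the small subunit rRNA (1.01, adjusted p = 0.0029). At day 7 Rbfa was called (0.52) and at day 14 Tfb1m (1.10, adjusted p = 0.032). Of 13 transcription factors and regulators, Tefm, the elongation factor of mitochondrial transcription, rose by 0.66 (adjusted p = 0.0046) and Ppargc1a, a coactivator of mitochondrial genes, fell by 0.94 (adjusted p = 0.011). With the MCU vector no gene of these 4 lists was called over both days, where 1.13% of all genes were. The list medians, in the order above, were -0.176, -0.122, -0.06 and -0.105, against -0.024 for all genes.

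For comparison, 13 of 48 complex I subunits rose over both days of silencing and 16 at day 7, with medians of 0.25 and 0.44, and 2 of 82 cytosolic ribosomal proteins rose over both days, with a median of 0.05. These are 27.1%, 33.3% and 2.44% of each list, beside 8%, 8.28% and 8% of all genes called higher. At day 7 of silencing 77 of 82 cytosolic ribosomal proteins had a positive difference (median 0.22), beside 13348 of 23342 genes, and 3 were called higher (3.66%). At day 14 71 had a negative difference (median -0.14), beside 11922 of all genes. The median change of the silencing effect between days was -0.36 for them, against -0.19 for the large and the small subunit genes. Of the marker lists, 7 leukocyte markers had 3 positive and 4 negative differences over both days of silencing (median -0.02), and 1 was called, Cd68, a macrophage marker, lower by 2.11 (adjusted p = 0.0052). At day 7 Cd68 and Adgre1 were called lower and Itgam higher (0.32). The 5 slow fibre markers ranged from -0.99 to 0.83, with Myl2 alone called, lower (adjusted p = 0.0022). Their summed signal ranged from 2.068 to 43.46 in the transfected controls of day 7, and reached at most 6.339 in any other group. The erythroid marker Hba-a1 measured -0.02 at day 7 and 3.01 at day 14 of silencing, the latter at an unadjusted limma p below 0.05, and was not called. Of 2 adipocyte markers Adipoq was higher by 1.06 (adjusted p = 0.0034) and Plin1 measured -0.10. Of 9 fast fibre markers tested none was called with silencing, and Mylpf, a fast myosin light chain, was called for vector against silencing (0.90, adjusted p = 0.023). At day 14 of silencing their differences ranged from -2.21 to 4.04. By limma, 1 was higher and 3 lower at an unadjusted p below 0.05, against 9.4% and 9.13% of all genes. The mean of Myh1 was 6.38 there against 2.34 in the controls of that day, that of Myh4 5.28 against 7.49, and that of Actn3 4.63 against 6.84. In 1 silencing fibre of day 14 the fast myosin Myh4 lay at 0.37. The part of these markers in the differences of the mitoribosomal genes was not tested.

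Controls differed from each other as well. Transfected control fibres had 4 members higher and 1 lower than wild type over both days, 6.49% of the members against 27.8% of all genes. Mrps24, a small subunit protein with a bacterial counterpart, stood out: 2.00, 2.27, 2.23 and 1.99 in transfected controls of day 7 against 1.81, 1.58, 1.55 and 1.73 in wild type, and 2.21 to 2.39 against 1.30 to 1.53 at day 14. The groups did not overlap on either day, a difference of 0.65 (SE 0.09, adjusted p = 1.6e-05). With the silencing vector Mrps24 lay at 1.64 to 1.87 at day 7, below every control of that day, and at 2.45, 2.32, 2.56 and 2.21 at day 14, where 2 of 4 fibres lay above every control (2.21 to 2.39); neither difference was called. Mrpl40 (0.42, adjusted p = 0.014), Mrpl43 (0.38, adjusted p = 0.022) and Mrps17 (0.34, adjusted p = 0.010) were the other 3 that were higher, and Mrpl35 was lower. The count of 5 was 3 without fibre 3 of wild type of day 14 or of the controls of day 7, and 8 without fibre 4 of the controls of day 7. Here slide and group cannot be told apart. Between day 14 and day 7 no member was called in wild type (2.41% of all genes) or in transfected controls (3.26% of all genes); 10 and 12 members were higher at an unadjusted p below 0.05, against 9.39% and 12% of all genes.

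The promoters hold letters known from genes of the mitochondrion. In the RefSeq table (GRCm38.p6), 67 of 78 members had a promoter of 250 bases before to 50 after the start. On either strand, the ETS core CCGGAAG occurred in 35.8% of these members and 9.93% of all genes of the table, the NRF1 core GCATGCGC in 11.9% and 3.05%, and the YY1 core AAGATGGC in 17.9% and 3.19%. TATAAA occurred in 7.46% against 15.7%, and CCAAT in 40.3% against 41.1%. Of 14 matched members called in a comparison with a vector, 4 held the ETS core upstream of the start, with 10 bases on either side. Among all matched members 24 of 67 held it in the longer window that includes 50 bases after the start. Whether the core goes with the calls was not tested. The stretches of these 4 called members are shown, in capitals the core or its reverse complement, printed on the gene's strand. Mrpl48 has several promoters in the table. The one shown, the farthest downstream, holds the core, and the others do not.

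Mrpl18 (chr17:12916315-12916341, minus strand): actgaaaacgCCGGAAGtagggggctg
Mrpl34 (chr8:71464879-71464905, plus strand): actacagctcCCGGAAGgccccgcggc
Mrpl48 (chr7:100583148-100583174, minus strand): gttttaaaaaCTTCCGGaaccaagatg
Mrpl51 (chr6:125192100-125192126, plus strand): aggggctaaaCCGGAAGtatttgactg

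Mrpl41, called on 1 of its 2 probes, showed none of the ETS, NRF1 and YY1 cores there but CCAAT at 61 and 11 bases before its start. Mrps11 and Mrpl46 lie head to head on chromosome 7 with 42 bases between them, so that a small and a large subunit gene share this stretch. A match is a description of letters and not of binding.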

How the data were processed

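Single fibres were read on Agilent arrays with Agilent Feature Extraction 10.7.3.1, per the file headers. The deposited values are spot intensity, background-subtracted and detrended by the scanner software per the file headers; the submitters' series matrix, deposited as intensity on a linear scale, served as an alternative (array medians 20.93 to 21.03; r of at least 0.998 with the same array's scanner values; its normalization is not given in the sources used here). Of 55681 probes, 26425 were named through RefSeq by accession, 3988 by symbol and 826 by synonym, and 24442 kept the deposited name. Control and outlier spots were left out and spots of a probe averaged as log2 values. Values are log2 intensity minus the array's 75th percentile over non-control probes. Kept were 33164 probes that passed the scanner's background flag on 3 or more arrays in any group; the brightest stood for its gene. A model with 8 group means was fitted with limma 3.58.1 in R 4.3.3 (22 residual degrees of freedom), 2-sided, with Benjamini-Hochberg adjustment over 23342 genes, called below 0.05. The script was tested on simulated data. The percentile was first taken over spots and then over averaged probes, as the design states; results under both had been seen, and the spot version is an alternative added afterwards.

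Members, gene lists and named genes (called members, the largest statistics by subunit, spread extremes, members of known role and called list genes) were chosen with earlier results of these data known; not every gene so chosen is named. Same-numbered fibres of a vector group and its control correlated at -0.175 to 0.186, above 0.1 in 4 of 14 pairs, and were not taken as pairs. The number of arrays limits the precision.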

Additional observations from a re-analysis of the deposited data

Results flagged for a closer look

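In 9 cases limma's test of the difference between effects itself passed. For vector against silencing these were 10.4% of the members against 11.2% of all genes, and for the silencing effect between days 1.3% against 4.13%. Of 43 alternatives, those leaving out a fibre included, 13 kept the vector against silencing call of Mrps35, 19 that of Mrpl38 and 21 that of Mrpl20. The MCU vector effect was lower than the silencing effect for Mrpl41 (-1.01, on 1 of its 2 probes), Mrpl35 (-0.70), Mrps35 (-0.67), Mrpl14 (-0.63), Mrpl55 (-0.58), Mrpl34 (-0.58), Mrpl38 (-0.51) and Mrpl20 (-0.35), and the silencing effect on Mrpl20 was lower at day 14 than at day 7 (-0.62).

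Among 132 sets of 4 fibres looked at (20 called members and both subunit means), 2 held a fibre far from the other 3; chance flags about 1 in 20 groups. Mrpl43 was low in fibre 3 of wild type at day 7, with a gap of 0.877 of the range of the group, and Mrps35 was high in fibre 1 of the transfected controls of day 14, with a gap of 0.922.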

How the results depend on the processing

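Slide as a random block could not be fitted, since each group lies on 1 slide. Of the 12 counts of called members, those of the MCU vector at day 7 and of its change between days were 0 under every setting run; the others moved by over 1.5 times as follows. A percentage after a setting is the share of all genes called under it. MCU vector over both days (0), all lower: 1 with the percentile over probes detected on all arrays (1.25%), 2 with quantile normalization (1.26%) or the submitters' matrix (1.33%). This count was 2 with Myh4 and Myh1 as covariates (2.3%), 3 with normexp (2.18%) and 6 with array weights (5.56%). MCU vector at day 14 (0): 1 with array weights (1.68%) or with Myh4 and Myh1 (1.53%). Silencing over both days (8): 14 with probes detected on all arrays (18.2% with the percentile over them, 15.9% with only them kept). This count was 5 without the dim filter (7.71%), 4 with the replicate block (11.5%) and 2 with array weights (9.69%). It was 1 with median scaling (13.5%), only the groups compared (6.91%) or Myh4 and Myh1 (9.9%). Silencing at day 7 (9): 14 with probes detected on all arrays (16.3% with the percentile over them, 15.5% with only them kept). This count was 5 without the dim filter (7.56%), 3 with median scaling (10.9%), 1 with the replicate block (9.48%) and 0 in only the groups compared (3.65%). Silencing at day 14 (2): 1 without the dim filter (1.82%) or with array weights (2.54%). This count was 0 with median scaling (3.9%), only the groups compared (0.557%), Myh4 and Myh1 (1.83%) or the replicate block (2.49%). Change of the silencing effect between days (1): 4 with quantile normalization (3.89%), normexp (4.46%) or the matrix (3.78%). This count was 2 with probes detected on all arrays (3.94% with the percentile over them, 4.9% with only them kept) or Myh4 and Myh1 (3.72%). It was 0 with median scaling (3.23%), only the groups compared (1.38%) or the replicate block (2.49%). Vector against silencing (8): 28 with probes detected on all arrays (15.6% with the percentile over them, 14% with only them kept). This count was 18 with the matrix (11.4%), 16 with quantile normalization (11.3%) and 4 without the dim filter (5.47%). It was 3 with Myh4 and Myh1 (9.13%), and 1 with median scaling (10.4%) or the replicate block (7.5%). Transfected control against wild type (5): 24 with median scaling (30.6%) and 1 with the share of detected probes (14.8%). Wild type between days (0): 1 with quantile normalization (2.85%) and 2 with normexp (4.42%), array weights (5.94%) or only probes detected on all arrays (3.78%). Transfected control between days (0): 1 with quantile normalization (2.18%) or only probes detected on all arrays (4.47%). This count was 2 with normexp (4.1%) or the percentile over such probes (3.33%), and 3 with array weights (4.54%) or Myh4 and Myh1 (5.66%). Pairing was not given by the labels, and whether the lost calls under the block go with smaller effects was not tested.

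Median scaling shifted the median of all genes by over 0.1, to -0.083 over both days of silencing, -0.047 at day 7, -0.128 at day 14, 0.095 for vector against silencing and 0.124 for transfected control against wild type, and the large and small subunit medians with it: -0.011 and -0.047 (silencing, both days), 0.111 and 0.039 (day 7), -0.095 and -0.066 (vector against silencing), 0.222 and 0.228 (transfected control). Among all genes called, the share that was higher went from 56.7% to 25.1% over both days of silencing, from 61.5% to 37.9% at day 7, from 44.6% to 22.4% at day 14, from 47.7% to 78.7% for vector against silencing, from 36.9% to 66.9% for transfected control, from 74.1% to 87.2% for the vector over both days and from 77% to 88.5% at day 14, and between days from 53.1% to 37.2% in wild type and from 62.3% to 42.5% in transfected controls. With the percentile over probes detected on all arrays these shares were 74.5%, 72.6% and 64.4% for silencing (both days, day 7, day 14), 27.2% for vector against silencing, where the median of all genes moved to -0.177, 23.9% for transfected control and 63.7% for the vector over both days, and normexp gave 60% for the last. Relative to the median of all genes, median scaling could not move the members' medians, since it subtracts the same value from every gene of an array. Normexp gave large subunit medians of 0.109 at day 7 of silencing and -0.064 for its change between days. The medians of all genes were 0.077 and -0.071 there. Myh4 and Myh1 as covariates gave -0.338 and -0.35 for that change. The cause was not tested.

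Leaving out a fibre gave counts of 0 to 1 (vector, both days), 2 to 10 (silencing, both days), 3 to 10 (day 7), 0 to 2 (day 14), 0 to 2 (change between days), 3 to 19 (vector against silencing), 3 to 8 (transfected control against wild type) and 0 to 2 (each control between days). Over named members, 1 sign turned with the share of detected probes (Mrpl43 with the vector, -0.012) and 1 without fibre 3 of wild type at day 7 (Mrps22 with the vector, -0.045, in a range of -0.045 to 0.09); neither was called. Counting Mrps18a and Mrps30 with the large subunit, leaving out Mrps36 and its pseudogenes, or taking the percentile over spots, all chosen after seeing the data, moved no count by over 1.5 times and no median by more than the spread between fibres.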
